A study of Mus musculus with 6 samples.

Results

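Osteoblasts, the bone-forming cells, of the mouse mandible (lower jaw) and tibia (shin bone) were compared for 30 genes of glycolysis, lactate export and the response to low oxygen. The genes were taken by name, RPKM values were summed over the transcripts of each gene symbol, and all 30 were found among the 19679 gene symbols of the table. RPKM corrects read numbers for transcript length and sequencing depth, so levels of different genes may be compared per length. The 6 libraries were 3 from mandible and 3 from tibia. Both groups came from mice at postnatal day 9 with the genotype transgenic Col1a1*2,3-GFP, in which part of the Col1a1 promoter drives GFP in osteoblasts, so the sort takes any cell in which it is active. Bones of about 50 mice were pooled in each of 3 dissections, digested with collagenase I, and GFP-positive cells were collected by FACS. No library therefore stands for a single mouse, and the 3 libraries of a site measure the spread between pooled preparations. RNA of 2 to 8 ng per preparation was amplified with the SMART-Seq v4 low-input kit before sequencing.

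Glycolysis splits glucose into pyruvate. Glucose enters through Slc2a (GLUT) transporters, is trapped by hexokinase, committed by phosphofructokinase, and ends as pyruvate, which lactate dehydrogenase turns to lactate for export through Slc16a (MCT) transporters. Osteoblasts are known to use glucose heavily and to release lactate even where oxygen is present. When oxygen is low, prolyl hydroxylases of the Egln family stop marking the transcription factors Hif1a and Epas1 (HIF2 alpha) for destruction, and these raise genes for glycolysis, blood vessel growth and stress.

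All 13 osteoblast markers, Col1a1, Bglap and Ibsp among them, were present, with summed RPKM of 72259 to 82846 in mandible and 76346 to 91463 in tibia. Within that sum members of the list went opposite ways in dissection 3, where Col1a1 took 0.950% of RPKM in mandible and 1.46% in tibia, against 4.15% to 4.40% and 6.26% to 7.01% in the other libraries. Col1a2, Sp7 and Alpl were also lower in dissection 3 at both sites, while Bglap, Bglap2 and Spp1 were higher. Read totals, worked out from the spacing of low RPKM values, were 49.5 to 58.0 M reads in mandible and 49.1 to 51.9 M reads in tibia. Both libraries of dissection 3 stood apart from the others, with a sum of gene RPKM of 586126 and 547950.1 against 374077 to 410846 in the rest. Erythroid markers (11 of 12 in the table) summed to 2208 to 20670.2 in mandible and 5606 to 43041 in tibia. Myeloid and osteoclast markers (14 of 14) summed to 1518 to 9573 in mandible and 1834 to 9886 in tibia. The sums of both lists were highest in dissection 3, but members of the second list went opposite ways. In dissections 1, 2 and 3 S100a8 read 160, 286 and 3140 RPKM in mandible and 252, 448 and 3068 in tibia. Ocstamp, an osteoclast gene, read 16.0, 10.6 and 2.83 in mandible and 12.5, 9.14 and 0.256 in tibia. The osteoclast genes Acp5 and Ctsk were highest in dissection 3, but by far less than S100a8. In such bulk libraries, fewer cells of a type and less RNA per cell cannot be told apart.

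Promoter sequences of 4 genes are shown as background to their values: Ldha and Ldhb encode subunits of one enzyme, of which only Ldhb was called between the sites, and Bnip3 and Ankrd37 are known hypoxia-responsive genes, neither of them called. Each sequence is the 250 bases before a RefSeq gene start (build GRCm38.p6), read 5′ to 3′ on the gene's strand. Ldha lies at chr7:46845554-46845803 on the plus strand, the first of its 2 windows. Ldhb lies at chr6:142507958-142508207, Bnip3 at chr7:138909507-138909756 and Ankrd37 at chr8:45999851-46000100, all on the minus strand. The Ldha and Ankrd37 windows lie inside the listed gene spans (chr7:46842274-46855627 and chr8:45996908-46000414), so their starts are not the outermost ones. Capitals mark every match to ACGTG or GCGTG on either strand, the core letters of the hypoxia response element. A CACGTG counts on both strands and is also the E-box read by Myc and other factors.
Ldha: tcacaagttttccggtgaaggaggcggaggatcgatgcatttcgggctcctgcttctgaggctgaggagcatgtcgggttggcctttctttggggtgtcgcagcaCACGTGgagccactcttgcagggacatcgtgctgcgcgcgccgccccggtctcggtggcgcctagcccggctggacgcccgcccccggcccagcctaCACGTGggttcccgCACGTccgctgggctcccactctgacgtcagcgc
Ldhb: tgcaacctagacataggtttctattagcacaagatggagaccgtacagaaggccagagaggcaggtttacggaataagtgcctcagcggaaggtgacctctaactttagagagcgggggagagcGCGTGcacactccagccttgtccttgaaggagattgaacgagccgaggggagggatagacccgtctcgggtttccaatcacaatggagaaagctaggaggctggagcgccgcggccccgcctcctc
Bnip3: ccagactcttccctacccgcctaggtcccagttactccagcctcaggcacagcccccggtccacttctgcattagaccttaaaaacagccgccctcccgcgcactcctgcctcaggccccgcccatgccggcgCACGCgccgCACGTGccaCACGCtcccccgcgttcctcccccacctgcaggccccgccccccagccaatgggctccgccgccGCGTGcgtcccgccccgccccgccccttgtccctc
Ankrd37: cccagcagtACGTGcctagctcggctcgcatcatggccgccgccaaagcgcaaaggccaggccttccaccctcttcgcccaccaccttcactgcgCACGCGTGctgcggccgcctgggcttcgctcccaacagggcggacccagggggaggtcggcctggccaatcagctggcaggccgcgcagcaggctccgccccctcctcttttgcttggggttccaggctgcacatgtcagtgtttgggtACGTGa
These 250 bases held 5 matches in Ldha, 1 in Ldhb, 5 in Bnip3 and 4 in Ankrd37. In the second Ldha window (chr7:46846832-46847081), not shown, the 250 bases held 1 match, as in Ldhb. RefSeq windows of 300 bases (250 before and 50 after the start) were matched for 27 of the 30 genes, without Slc2a3, Epas1 and Ndrg1. Of the 27, 25 (92.6%) held ACGTG or GCGTG in at least 1 window, and Gpi1 and Tpi1 did not. Among all 9688 tested genes with a window, 66.8% held such a match. The 27 genes have more windows per gene (1.44 on average against 1.28). Per window the shares were 79.5% of 39 windows against 54.6% of the windows of all genes in the table. That is a wider background than the tested genes, and 58.9% of its genes with a window held a match. With ACGTG alone, 20 of 27 genes (74.1%) held a match, against 29.1% of tested genes. A match is a description of letters and not a site in use.

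Of the 30 genes, 29 passed the filter of a mean RPKM of 0.5, and only Egln3 did not. None of the 29 differed between mandible and tibia at an adjusted p under 0.05 in the limma fit of log2(RPKM + 0.5), while 0.972% of the 12752 genes tested did (0.87% higher and 0.102% lower in mandible). At an unadjusted p under 0.05, the limma fit had 3 of the 29 (Pfkm, Pfkp and Pgam1), against 8.99% of all tested genes. With the dissection number as a block, the count stayed at 0 called, against 6.49% of all tested genes (4.44% higher and 2.05% lower). In that limma fit 8 of 29 had an unadjusted p under 0.05, against 26.5% of all. These 8 were Hk1, Pfkm, Pfkp, Pgam1, Slc16a3, Bnip3, Ankrd37 and Adm. Without both libraries of dissection 3 none of the 29 was called in limma either, against 5.75% of all genes, and with the block and quantile normalization only Pfkp was, against 6.15%. Median log2 fold change, mandible minus tibia, was 0.09 over the 29 genes and 0.12 over all tested genes. Of the 29 values 18 were above 0, and 11 were above 0 after quantile normalization, which moved the median of all genes to -0.01. Every mandible library lay above every tibia library for 3 genes (Pfkm, Pgam1 and Bnip3), where 12.6% of all tested genes did so. Only Pfkp had every mandible library below every tibia library, where 3.05% of all genes did. Mandible was higher within each of the 3 dissections for 7 genes (36.8% of all tested genes) and lower within each for 6 (13.4% of all).

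**Figure D1:**
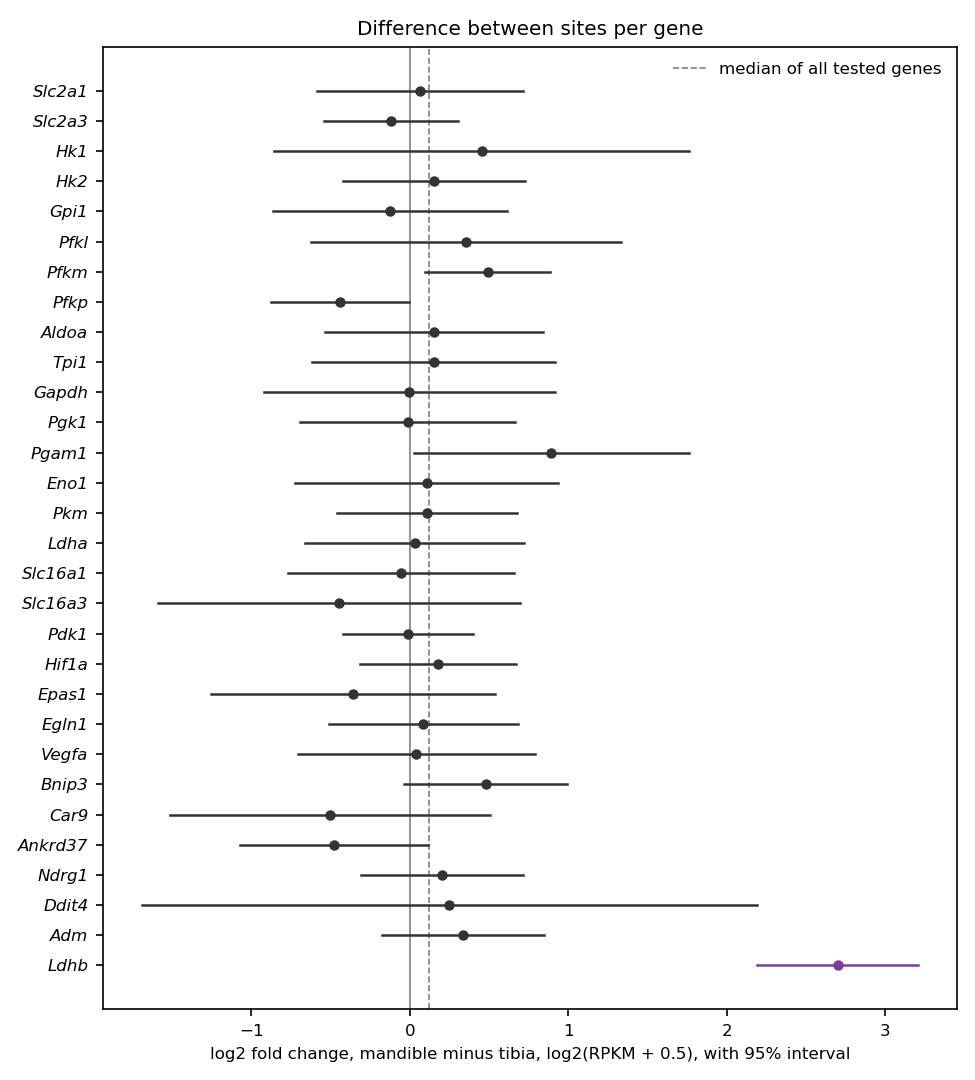
Difference between mandible and tibia for the 29 tested genes and for Ldhb (purple), as log2 fold change on the log2(RPKM + 0.5) scale with its 95% interval from limma over 6 libraries; the dashed line is the median of all tested genes. The fit drawn has site as its only term. Its intervals of the 29 genes cover 0 except for Pfkm, Pfkp and Pgam1, and Ldhb stands apart at 2.70. With the dissection block, not drawn, the intervals of Hk1, Slc16a3, Bnip3, Ankrd37 and Adm exclude 0 as well, though none of the 29 genes was called.

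Levels spanned more than 3 orders of magnitude. Gapdh was the most abundant of the 30 genes, at 636 ± 217 RPKM (SD, n = 3) in mandible and 641 ± 237 in tibia, followed by Aldoa, Pkm and Ldha. The sugar-splitting and energy-yielding enzymes from Gpi1 to Ldha lay between 5.71 and 912 RPKM in single libraries. Pfkp, at 5.71 to 9.45 RPKM, was the lowest of these enzymes. The lactate carriers Slc16a1 and Slc16a3, with Pdk1, Hif1a, Egln1 and Vegfa, read 0.987 to 7.08 RPKM, while the carrier Slc2a1 and the regulator Epas1 reached 21.7 and 13.4.

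**Figure D2:**
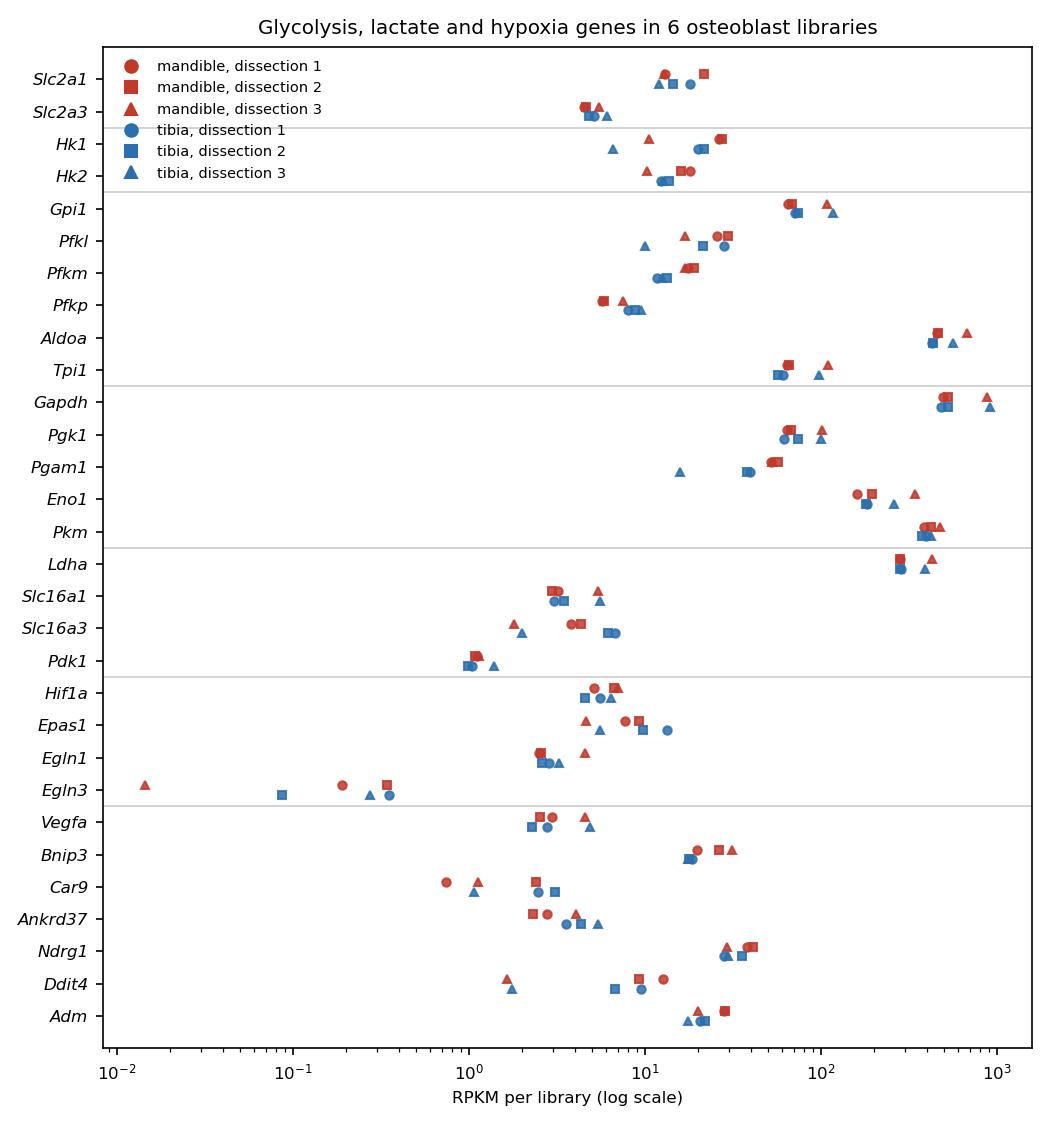
RPKM of each of the 30 genes in each of the 6 libraries on a log axis, with mandible in red, tibia in blue and the marker shape giving the dissection; grey lines separate roles from glucose entry at the top to hypoxia-responsive targets at the bottom. Most genes show both sites interleaved, and triangles (dissection 3) lie apart from the other shapes for many enzymes.

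Of the glucose carriers Slc2a1 and Slc2a3, the more abundant was Slc2a1 (GLUT1), the widely used basal carrier, at chr4:119108745-119137330. In dissections 1, 2 and 3 it read 13.0, 21.7 and 12.8 RPKM in mandible and 18.0, 14.4 and 12.1 in tibia, the order used for all values that follow. The groups overlapped, and the log2 fold change of 0.06 (SE 0.27, 95% interval -0.59 to 0.71, limma adjusted p = 0.984) changed sign under every rescaling tried (-0.08 after quantile normalization). Slc2a3 (GLUT3), a high-affinity carrier, lay at 4.51 to 5.52 RPKM in mandible and 4.83 to 6.06 in tibia. Slc2a1 thus made up 75.5% ± 6.43 (SD, n = 3) of the summed RPKM of both carriers in mandible and 73.1% ± 5.80 in tibia. Of the other glucose carriers listed, 7 of 11 passed the filter and none was called. Slc2a10 (GLUT10), a carrier of intracellular membranes, had a higher mean level than Slc2a1, at 22.6 ± 9.75 RPKM in mandible and 18.2 ± 7.34 in tibia against 15.8 ± 5.09 and 14.9 ± 2.99 RPKM.

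Hexokinase phosphorylates glucose. Hk1, the housekeeping form, read 26.3, 27.3 and 10.5 RPKM in mandible libraries 1 to 3 and 19.9, 21.7 and 6.59 in the tibia libraries. Mandible was above tibia within each dissection, but dissection 3 was lower at both sites by more than the sites differed. Its log2 fold change was 0.45 (SE 0.55, limma adjusted p = 0.943), and with the dissection block limma gave an adjusted p of 0.0719. Hk2, the inducible form known from muscle and tumours, read 18.0, 16.0 and 10.3 RPKM in mandible and 12.4, 13.8 and 12.6 in tibia. In both sites Hk1 was the larger part in dissections 1 and 2, at 57.5% and 60.0% of hexokinase RPKM in mandible and 54.9% and 55.5% in tibia. In dissection 3 it made up 39.4% in mandible and 27.2% in tibia. Hk3, a form abundant in myeloid cells, held 22.1% and 20.7% there, against 3.29% to 11.0% in the other libraries, though its own RPKM was 1.51, 2.21 and 5.91 in mandible and 3.99, 3.67 and 5.01 in tibia, so that in tibia the larger share went mostly with less Hk1. Sums of the myeloid and osteoclast list were 1518, 1692 and 9573 RPKM in mandible and 1834, 2409 and 9886 in tibia. Its members went opposite ways in dissection 3, and the part of such cells in the Hk3 values was not tested. With only the highest transcript of each gene counted, Hk3 averaged 5.13% in tibia against 13.7% with all.

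Phosphofructokinase, the committing step, has liver (Pfkl), muscle (Pfkm) and platelet (Pfkp) forms. Pfkm, at chr15:98092589-98132447, read 17.5, 19.0 and 16.8 RPKM in mandible and 11.6, 13.4 and 12.6 in tibia. Every mandible library was above every tibia library, with means of 17.8 ± 1.14 and 12.5 ± 0.870 (SD, n = 3). Its log2 fold change of 0.49 (SE 0.17, 95% interval 0.09 to 0.89) missed the threshold in limma, with an adjusted p of 0.434, and of 0.0506 with the dissection block. Pfkp, at chr13:6579874-6649060, went the other way, at 5.71, 5.89 and 7.51 RPKM in mandible and 8.06, 8.84 and 9.45 in tibia. Again the groups did not overlap, with means of 6.37 ± 0.993 and 8.79 ± 0.697. The log2 fold change was -0.44 (SE 0.18, 95% interval -0.88 to -0.01, limma adjusted p = 0.547, and 0.0835 with the dissection block). The call turned only when the block and quantile normalization were used together (-0.57, limma adjusted p = 0.0474). Pfkl, the most abundant form in dissections 1 and 2 at both sites, read 25.6, 29.6 and 16.9 RPKM in mandible and 28.1, 21.3 and 10.01 in tibia, and its groups overlapped. As shares of phosphofructokinase RPKM, Pfkp was 11.7%, 10.8% and 18.2% in mandible and 16.9%, 20.3% and 29.5% in tibia. Pfkm was 35.8%, 34.9% and 40.8% in mandible and 24.4%, 30.7% and 39.2% in tibia, so within each dissection the Pfkm share was higher and the Pfkp share lower in mandible. With only the highest transcript of each gene counted, Pfkm made up 24.2% of the family in mandible and 20.9% in tibia on average, against 37.2% and 31.4% with all transcripts. These shares were built from the gene values and were not tested.

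**Figure D3:**
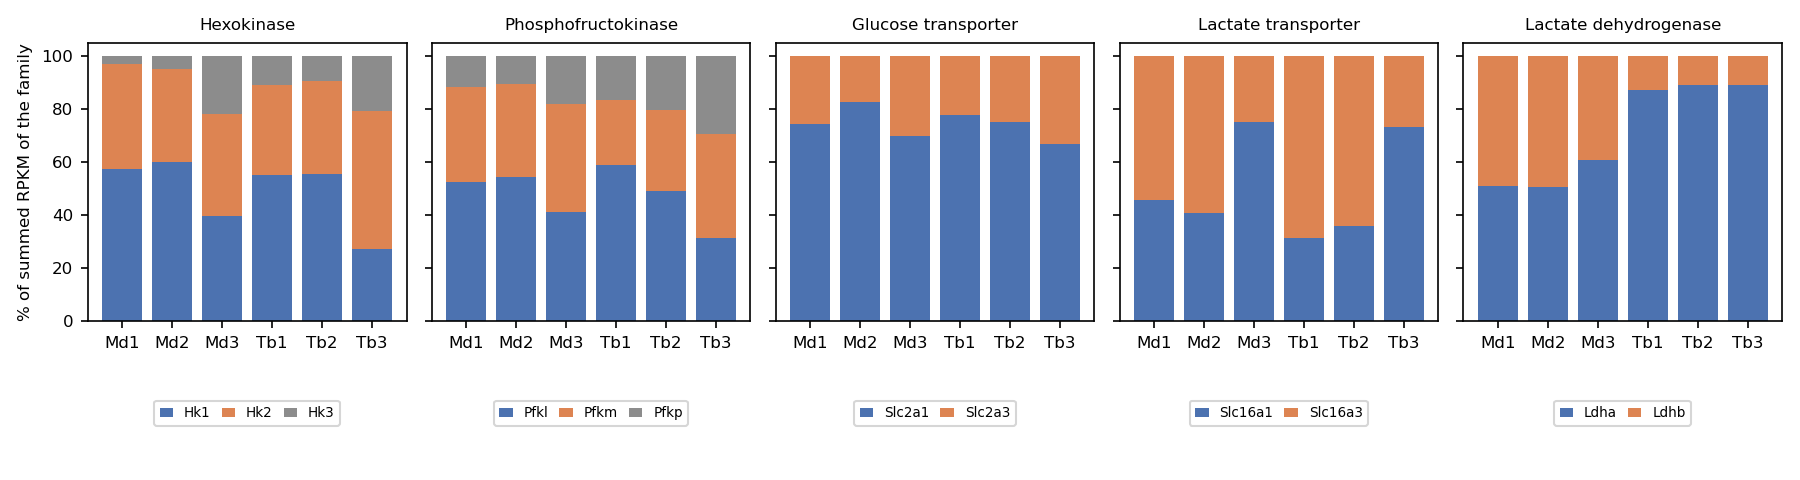
Share of each isozyme or carrier in the summed RPKM of its family, one bar per library (Md1 to Md3 mandible, Tb1 to Tb3 tibia, numbered by dissection). The lactate dehydrogenase panel separates the sites, with Ldhb at 39.3% to 49.5% in mandible and 11.0% to 12.8% in tibia, while the hexokinase and lactate carrier panels separate dissection 3 from the others.

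For the remaining upper steps the sites overlapped. Gpi1, which turns glucose 6-phosphate into fructose 6-phosphate, read 64.8, 68.2 and 108 RPKM in mandible and 70.9, 74.1 and 118 in tibia. Aldoa, which splits the 6-carbon sugar, read 458, 464 and 673 RPKM in mandible and 427, 435 and 561 in tibia. Tpi1, which interconverts the triose phosphates, read 64.0, 66.3 and 110.1 RPKM in mandible and 60.8, 57.2 and 97.7 in tibia. Each of the 3 genes was highest in dissection 3 at both sites, and site differences within a dissection were -0.13 to 0.26 on the log2 scale. Their limma adjusted p values were 0.966 to 0.971.

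Of the lower steps, Pgam1 (phosphoglycerate mutase, at chr19:41911871-41918665) showed the largest site difference of the 29 genes. It read 52.1, 57.2 and 52.8 RPKM in mandible and 39.6, 38.0 and 15.9 in tibia, with means of 54.0 ± 2.74 and 31.2 ± 13.2 (SD, n = 3). Every mandible library was above every tibia library, and tibia library 3 was lowest by far. The log2 fold change was 0.89 (SE 0.36, 95% interval 0.02 to 1.76, limma adjusted p = 0.54, and 0.0853 with the dissection block). Within dissections 1, 2 and 3 it was 0.39, 0.58 and 1.70. Without tibia library 3 the log2 fold change was 0.47 (limma adjusted p = 0.489). The other lower enzymes overlapped between sites. Gapdh, which yields NADH, read 492, 529.7 and 885 RPKM in mandible and 481, 528 and 912 in tibia, with log2 differences within dissections of 0.03, 0.00 and -0.04. Pgk1, the first ATP-yielding enzyme, read 64.5, 67.2 and 102 RPKM in mandible and 61.8, 73.9 and 99.9 in tibia. Gapdh, Pgk1 and Pgam1 have processed copies in the mouse genome, and the sources used here do not say how shared reads were assigned.

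Eno1 (enolase) read 161, 194 and 342 RPKM in mandible and 184, 179.9 and 259.9 in tibia. A near-identical copy, Eno1b, read 232, 215 and 205 in mandible and 187, 185 and 256 in tibia, so the split between both is uncertain. Their sum was 450.1 ± 84.4 RPKM in mandible and 417 ± 85.3 in tibia (SD, n = 3), and mandible was higher within each dissection, at 393.8, 409.3 and 547.2 RPKM against 371.1, 364.5 and 515.5. No test was run on the sum. Pkm (pyruvate kinase) makes M1 and M2 enzymes by choosing one of a pair of exons, and M2 is the form usual in growing cells. Pkm read 385, 424 and 477 RPKM in mandible and 396, 374 and 420.2 in tibia. The transcript with the M1 exon (chr9:59675029-59675195, 167 bases) carried 5.04% ± 0.747 of Pkm RPKM in mandible and 3.88% ± 0.413 in tibia. The transcript with the M2 exon (chr9:59675568-59675734) carried the rest, so M2 dominated at both sites.

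Lactate dehydrogenase gave the clearest site difference of the pathway, and it lay outside the 30 genes. Ldha, whose subunit favours making lactate, read 281, 280.3 and 427 RPKM in mandible and 287, 283 and 389 in tibia, and the groups overlapped. Its means were 329.6 ± 84.7 and 319.8 ± 60.0 RPKM (SD, n = 3), with a log2 fold change of 0.03 (SE 0.29, 95% interval -0.66 to 0.72, limma adjusted p = 0.991). Within dissections the difference was -0.03, -0.01 and 0.14, and the interval with the dissection block was -0.20 to 0.26. Ldhb, at chr6:142490249-142507957, encodes the heart-type subunit, which favours turning lactate back into pyruvate. It read 270.0, 274 and 276 RPKM in mandible and 42.2, 35.1 and 48.8 in tibia. Every mandible library was far above every tibia library, and the mandible values hardly varied. The means of 273 ± 3.18 and 42.0 ± 6.84 differed 6.51-fold, with a log2 fold change of 2.70 (SE 0.21, 95% interval 2.19 to 3.21, limma adjusted p = 0.00337). Within dissections 1, 2 and 3 the log2 difference was 2.66, 2.95 and 2.49. Leaving out both libraries of dissection 1 or of dissection 2 kept the size (2.72 and 2.58) but lost the call, with limma adjusted p values of 0.252 and 0.267.

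**Figure D4:**
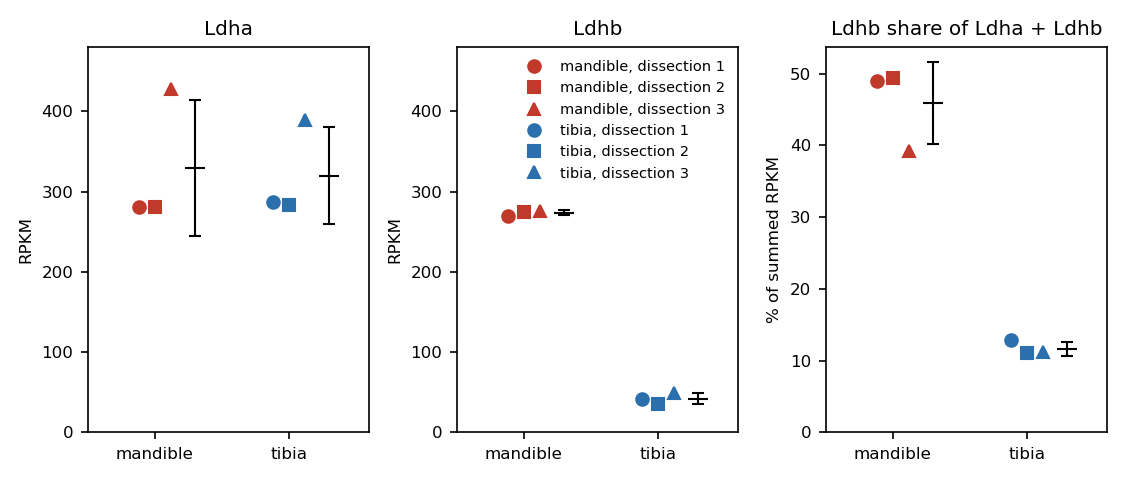
RPKM of Ldha and Ldhb and the Ldhb share of their sum in each library, with bars giving mean ± SD (n = 3 libraries per site). Ldha overlaps between sites, while Ldhb is at 270.0 to 276 RPKM in mandible and 35.1 to 48.8 in tibia.

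As a share of Ldha plus Ldhb, Ldhb was 49.0%, 49.5% and 39.3% in mandible and 12.8%, 11.0% and 11.1% in tibia. The mean shares were 45.9% ± 5.76 and 11.7% ± 1.0 (SD, n = 3). The Ldha and Ldhb sum was 603 ± 87.1 RPKM in mandible and 362 ± 66.0 in tibia, and most of the gap between these sums was Ldhb. Of the 3 Ldhb transcripts, 2 carried identical values in every library. If reads were counted once for each rather than divided, the share would be nearer that of the single highest transcripts, 29.4% in mandible and 5.80% in tibia, while the log2 fold change between sites is 2.75 on that basis. Ameloblast markers (7 of 7, the enamel-forming cells of teeth) summed to 513, 1269.9 and 2183 RPKM in mandible and 6.73 to 9.79 in tibia, where Odam was at 0 throughout. Odontoblast markers (5 of 5, the dentin-forming cells) summed to 76.6, 95.5 and 22.2 RPKM in mandible and 3.45 to 3.91 in tibia. Cartilage markers (10 of 10) summed to 109 to 270 and 25.9 to 100, Schwann cell markers (7 of 7) to 173 to 211 and 69.0 to 104, and epithelial markers (7 of 7) to 10.6 to 23.1 and 3.87 to 4.66. Col2a1 was the largest part of the cartilage sum in mandible, at a mean of 86.2 RPKM against 12.6 in tibia. Pmp22 was the largest part of the Schwann cell sum, at means of 124 and 73.0 RPKM. Not all members went with their sum. Klk4 of the ameloblast list and Col10a1, Comp and Matn3 of the cartilage list had higher means in tibia. So did Sox10 and Gfap of the Schwann cell list. The part of such cells in the Ldhb difference was not tested.

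Messages of the lactate carriers were low at both sites, and export itself was not measured. Slc16a1 (MCT1), the common carrier of lactate with a proton, read 3.19, 2.96 and 5.42 RPKM in mandible and 3.06, 3.45 and 5.53 in tibia. Slc16a3 (MCT4), the exporter of strongly glycolytic cells, read 3.80, 4.32 and 1.81 RPKM in mandible and 6.76, 6.16 and 2.01 in tibia. Mandible was lower within each dissection, by 0.75, 0.47 and 0.12 on the log2 scale, and the groups overlapped only through tibia library 3. The log2 fold change was -0.45 (SE 0.48, limma adjusted p = 0.925, and 0.148 with the dissection block). Slc16a3 made up 54.4%, 59.4% and 25.0% of both carriers in mandible and 68.8%, 64.1% and 26.7% in tibia. Bsg (basigin), the chaperone that brings these carriers to the membrane, was abundant in dissections 1 and 2, at 243 and 249.5 RPKM in mandible and 217 and 209 in tibia. In dissection 3 it read 35.6 RPKM in mandible and 20.5 in tibia. Pdk1, which inhibits pyruvate dehydrogenase inside mitochondria, was near 1 RPKM throughout, at 1.09 to 1.15 in mandible and 0.987 to 1.39 in tibia. Its relative Pdk4 was higher, at 20.0 ± 6.41 RPKM in mandible and 14.7 ± 4.79 in tibia, and was not called.

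None of the oxygen-sensing regulators was called. Hif1a, the oxygen-labile activator, read 5.14, 6.66 and 7.08 RPKM in mandible and 5.55, 4.57 and 6.39 in tibia (log2 fold change 0.18, SE 0.21, limma adjusted p = 0.936). Epas1, its relative prominent in endothelium, read 7.72, 9.22 and 4.63 RPKM in mandible and 13.4, 9.82 and 5.54 in tibia. Mandible was lower within each dissection, though the groups overlapped, with a log2 fold change of -0.36 (SE 0.38, limma adjusted p = 0.921). Endothelial markers (8 of 8) summed to 75.9, 88.4 and 97.8 RPKM in mandible and 277, 132 and 169 in tibia. Egfl7 was the largest part of each sum, at means of 43.4 RPKM in mandible and 86.0 in tibia. Members went opposite ways in dissection 3, where Cldn5 and Tie1 were lowest at both sites, and Emcn and Pecam1 highest. The rest were neither at both sites. The part of such cells in the Epas1 values was not tested. Egln1, the main oxygen-sensing hydroxylase, read 2.51, 2.58 and 4.59 RPKM in mandible and 2.87, 2.62 and 3.27 in tibia. Egln3, an inducible hydroxylase, was barely detected, at 0.0144 to 0.341 RPKM in mandible and 0.0863 to 0.350 in tibia, and was not tested. Message levels say nothing of HIF protein, which oxygen controls after translation.

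None of the 7 hypoxia-responsive targets was called. Bnip3, a mitochondrial protein of mitophagy, at chr7:138890836-138909506, read 19.8, 26.3 and 31.2 RPKM in mandible and 18.6, 17.9 and 17.6 in tibia. Every mandible library was above every tibia library, but the log2 difference within dissections 1, 2 and 3 was 0.08, 0.54 and 0.81. The log2 fold change of 0.48 (SE 0.22) had a limma adjusted p of 0.611, and of 0.119 with the dissection block. Ankrd37, a small ankyrin-repeat protein, had a log2 fold change of the opposite sign. It read 2.79, 2.32 and 4.08 RPKM in mandible and 3.56, 4.32 and 5.40 in tibia. It was lower in mandible within each dissection, at -0.30, -0.77 and -0.36. The log2 fold change was -0.48 (SE 0.25, limma adjusted p = 0.688, and 0.112 with the dissection block). Both promoters hold several of the core letters shown above. Adm (adrenomedullin, a vasodilator peptide) read 28.2, 28.7 and 20.1 RPKM in mandible and 20.7, 21.9 and 17.6 in tibia, higher in mandible within each dissection by 0.44, 0.38 and 0.19. Its log2 fold change of 0.33 (SE 0.21) had a limma adjusted p of 0.794, and of 0.120 with the dissection block.

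Car9, a cell-surface carbonic anhydrase used as a hypoxia marker, was low and variable, at 0.742, 2.42 and 1.12 RPKM in mandible and 2.48, 3.10 and 1.06 in tibia. Vegfa, the vessel growth factor, read 2.97, 2.54 and 4.55 RPKM in mandible and 2.77, 2.29 and 4.85 in tibia, with a log2 fold change of 0.04 (SE 0.31, limma adjusted p = 0.989). Of its 10 listed transcripts, the largest (NM_001110268) carried 53.0% ± 4.87 of Vegfa RPKM in mandible and 32.2% ± 3.88 in tibia (SD, n = 3). Division of reads among so many overlapping transcripts at this level is uncertain. Ndrg1, a stress-responsive protein, read 38.2, 41.2 and 29.3 RPKM in mandible and 28.1, 35.6 and 29.8 in tibia. Ddit4 (REDD1), a brake on mTORC1, read 12.7, 9.22 and 1.64 RPKM in mandible and 9.55, 6.73 and 1.76 in tibia. The dissections of Ddit4 lay much farther apart than the sites, and the site interval was -1.69 to 2.19 on the log2 scale.

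Of 110 further genes of these pathways, 108 were in the table and 94 were tested. Of these, 1 was higher in mandible (Ldhb) and none was lower in the limma fit, with 7 at an unadjusted p under 0.05. These are 1.06% and 7.45% of the 94, near or below the 0.972% and 8.99% of all tested genes. With the dissection block, limma called 3 higher (Ldhb, Galm and Car12) and 2 lower (Cxcr4 and Pgf), or 5.32% of the 94 against 6.49% of all. Galm, which interconverts glucose anomers, read 9.47, 10.6 and 11.9 RPKM in mandible and 6.18, 7.39 and 6.57 in tibia (log2 fold change 0.63, adjusted p = 0.295 in limma and 0.0381 with the block). Car12, another cell-surface carbonic anhydrase, read 13.4, 16.7 and 5.31 RPKM in mandible and 2.78, 2.44 and 2.30 in tibia (log2 fold change 1.90, adjusted p = 0.142 in limma and 0.0153 with the block). Car12 was thus more abundant than Car9 in every mandible library. Pgf, a vessel growth factor related to Vegfa, read 11.6, 11.7 and 13.1 RPKM in mandible and 19.5, 17.4 and 33.1 in tibia, with adjusted p = 0.379 in limma and 0.0341 with the block. Cxcr4, a chemokine receptor of marrow cells, read 2.34, 3.02 and 15.3 RPKM in mandible and 6.10, 5.78 and 25.2 in tibia, with adjusted p = 0.89 in limma and 0.0188 with the block. Lymphoid markers (6 of 6) summed to 14.2, 23.2 and 119 RPKM in mandible and 38.7, 58.3 and 213 in tibia. Cd79a and Cd79b were the largest parts, and Cd3g went against the sum, with means of 0.540 in mandible and 0.256 in tibia. Sums of the myeloid and osteoclast list were also highest in dissection 3, though its members went opposite ways. The part of any such cells in the Cxcr4 difference was not tested.

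Dissection 3 stood apart for many of these genes at both sites. Both libraries of dissection 3 were above the mean of dissections 1 and 2 for 16 of the 29 tested genes and below it for 11. Over all tested genes, 46.4% were higher and 33.4% lower at both sites. Of the 12 glycolytic enzymes from Gpi1 to Pkm with Ldha, 9 were higher in dissection 3 at both sites and 2 were lower. The median log2 difference of the 12 was 0.58 in mandible and 0.41 in tibia, against 0.07 and 0.15 over all tested genes. Gapdh was 1.73-fold and 1.81-fold its mean of dissections 1 and 2 in mandible and tibia, and Tpi1 was 1.69-fold and 1.66-fold. At the other end, Ddit4 was at 0.149-fold and 0.217-fold, and Hk1 at 0.393-fold and 0.316-fold. For Pgam1 the value was 0.966-fold in mandible and 0.411-fold in tibia, and for Car9 it was 0.712-fold and 0.381-fold, and these gaps were not tested. All these folds are of RPKM as deposited, and the sum of gene RPKM was itself larger in dissection 3. That sum was 586126 in mandible and 547950.1 in tibia, against 374077 to 410846 in the other libraries. As shares of the sum, rises such as those of Gapdh and Tpi1 are smaller, and falls such as those of Ddit4 and Hk1 larger.

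**Figure D5:**
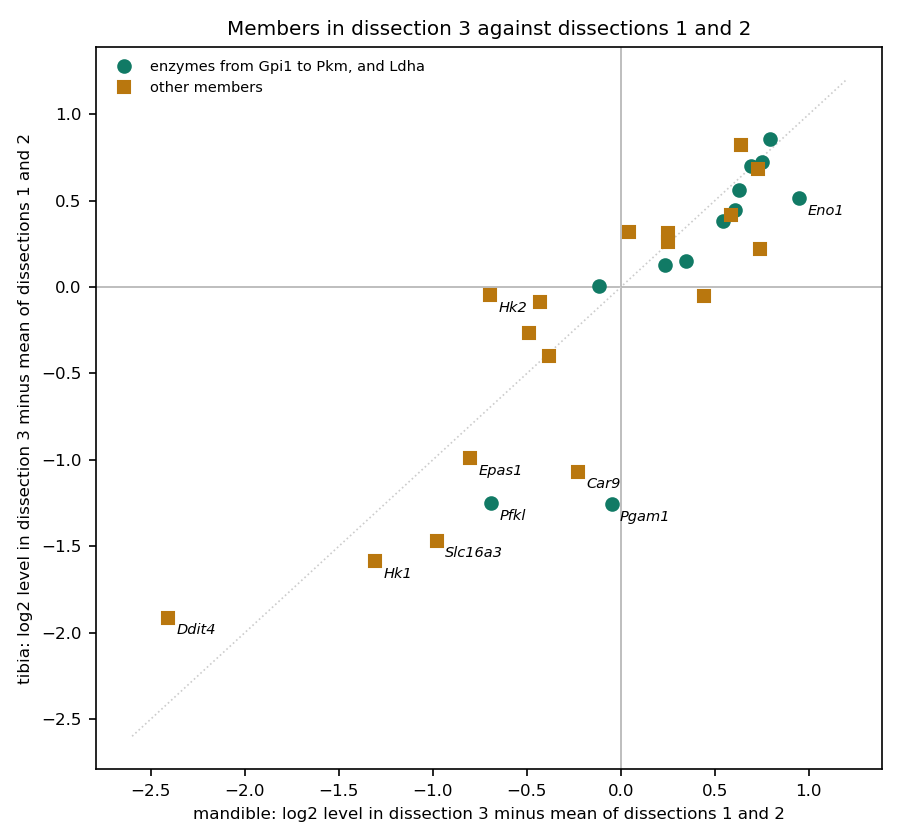
Each point is one of the 29 tested genes, placed by its log2 level in dissection 3 minus the mean of dissections 1 and 2 in mandible (x axis) and in tibia (y axis), with the glycolytic enzymes in green. Most enzymes sit in the upper right, Ddit4 and Hk1 lie at the lower left, and Pgam1 is at -1.26 in tibia but -0.05 in mandible.

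Over all genes, transcript length moved with this shift. The median log2 difference of dissection 3 over all genes was 0.91 in mandible and 0.79 in tibia for transcripts under 1 kb, and 0.36 and 0.33 for 1 to 2 kb. It was 0.03 and 0.09 for 2 to 4 kb, and -0.18 and 0.01 for 4 kb or more. The transcripts of Aldoa, Tpi1, Gapdh, Pgk1 and Ldha that carry most of their level are 1 to 2 kb long. Of the 9 genes of the set with such transcripts of 1 to 2 kb, 5 were higher in dissection 3 at both sites and 3 were lower (Ddit4, Adm and, in mandible by only 0.05, Pgam1). Of the 8 genes with transcripts of 4 kb or more, 4 were higher (Slc16a1, Hif1a, Pfkp and Pdk1) and 4 were lower (Hk1, Hk2, Slc16a3 and Epas1). Haemoglobin took 0.717%, 2.42% and 4.51% of all RPKM in mandible and 1.87%, 4.57% and 9.78% in tibia, so it too was highest in dissection 3. Transcript length, blood cell content and any change within the osteoblasts cannot be told apart in these values.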

How the data were processed

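Values for 6 libraries were the authors' deposited RPKM per RefSeq transcript, 30198 transcripts in all. The submitters' processing notes list CASAVA 1.8.2, TopHat2 2.1.0, Partek 6.6 and mm10, and RPKM was computed with Partek 6.15.1207 on mm10 per the file headers. Strand setting, annotation release and handling of shared reads were not given in the sources used here. RPKM was summed per gene symbol. The 12752 genes whose mean RPKM reached 0.5 entered a fit of log2(RPKM + 0.5) by limma 3.58.1 (lmFit, eBayes with trend, two-sided) in R 4.3.3, with site as the only term and Benjamini-Hochberg adjustment over all of them at 0.05. Fold changes on this scale understate low genes. The fit was tried on simulated data with known changes but no dissection effect, which says nothing of its behaviour under the dissection 3 shift. Python 3.11.15 and matplotlib 3.10.9 drew the figures. Read totals came from genes with a single transcript (13733), within 0.005 of a whole read; no count model was fitted, since other genes hold estimated shares.

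Experiment names in the labels give libraries of both sites one number per dissection, and their deviations from the site means correlated at 0.59, 0.66 and 0.80 for dissections 1, 2 and 3. Mandible 1 with tibia 2 and mandible 2 with tibia 1 gave 0.55 and 0.52, so the correlations set dissection 3 apart and hardly tie numbers 1 and 2, for which the pairing rests on the labels. The number served as a replicate block in a second fit. Promoter windows and gene coordinates are RefSeq's on GRCm38.p6, the build of mm10. The 30 genes were taken by name and all are reported, and further pathway genes are named where limma called them with or without the block, or as abundant relatives. Members and lists were chosen with earlier results of these data known. The Ldhb share was added after seeing the data.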

Additional observations from a re-analysis of the deposited data

How the results depend on the processing

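Of the log2 fold changes of the named genes over 21 alternatives, 631 kept direction and side of the threshold, 69 turned direction, 12 passed the threshold newly and 2 no longer passed it. Genes called in all went from 124 to 828 with the replicate block, 784 with the block and quantile normalization, and 62 with equal sums of RPKM, with or without haemoglobin. Leaving out libraries gave 0 to 724, the extremes being without dissection 2 (0) and without dissection 3 (724). Without mandible library 1, 2 or 3 the counts were 46, 40 and 141, without tibia library 1, 2 or 3 they were 37, 48 and 72, and without dissection 1 the count was 6. The 30 genes gave 0 calls except for 1 (Pfkp) under the block with quantile normalization. The further pathway genes gave 1 call, and 5 with the block and 5 with the block and quantile normalization, with 0 to 7 on leaving out libraries (0 without dissection 1 or 2, 7 without dissection 3, 2 without mandible library 3). The block changed no call of the 30 genes.

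Genes near 0 turned sign with the scaling, and the cause was not tested beyond the shift of the median of all genes from 0.12 to -0.01 under quantile normalization. With quantile normalization, with or without the block, Slc2a1 was -0.079, Aldoa -0.032, Eno1 -0.10, Pkm -0.076, Ldha -0.18, Egln1 -0.029 and Vegfa -0.088. With median-of-ratios scaling Slc2a1 was -0.069, Eno1 -0.030, Pkm -0.029, Ldha -0.11, Egln1 -0.032 and Vegfa -0.076. With equal sums Slc2a1 was -0.014, Ldha -0.050 and Vegfa -0.026, and without haemoglobin Slc2a1 was -0.056, Eno1 -0.016, Pkm -0.016, Ldha -0.094, Egln1 -0.025 and Vegfa -0.064. On leaving out libraries the ranges were -0.19 to 0.32 for Slc2a1, -0.077 to 0.89 for Hk1, -0.034 to 0.38 for Hk2, -0.36 to 0.11 for Gpi1, -0.063 to 0.66 for Pfkl, -0.029 to 0.28 for Aldoa, -0.10 to 0.39 for Tpi1, -0.27 to 0.28 for Gapdh and -0.22 to 0.17 for Pgk1. They were -0.21 to 0.33 for Eno1, -0.17 to 0.18 for Ldha, -0.30 to 0.17 for Slc16a1, -0.079 to 0.094 for Pdk1, -0.16 to 0.22 for Egln1, -0.17 to 0.32 for Vegfa and -0.39 to 1.05 for Ddit4. Taking the highest transcript in place of the sum, Hk2 was 41.0% of hexokinase RPKM in mandible and Hk3 5.13% in tibia, Pfkl was 59.6% and Pfkm 24.2% of phosphofructokinase in mandible, Pfkm was 20.9% in tibia, and Ldhb was 29.4% of lactate dehydrogenase in mandible and 5.80% in tibia.

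The 3 pooled preparations per site limit these results: of the 29 tested genes, the 95% interval lay wholly within 0.5 of 0 on the log2 scale for 1 without the block and for 14 with it, and the p-values measure the spread between preparations and not between mice.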
